A study of Sus scrofa with 8 samples.

Results

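The chemokines, interleukins and their receptors on an Affymetrix porcine array were examined in sow oviducts after contact with Y-spermatozoa or X-spermatozoa. Probe sets were taken where the platform annotation gave a single gene symbol that named a CC or CXC chemokine, a chemokine receptor, an interleukin or interleukin receptor, a colony stimulating factor, a TNF superfamily ligand, TNF, IFNG, LIF or AMCF-II. This gave 66 genes of 6765 named on the array, covered by 78 probe sets of 23999 tested. The rule read gene symbols alone.

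The tissue was oviduct of weaned crossbred Landrace x Large White sows with pre-ovulatory follicles and no sign of ovulation, collected 24 hours after laparoscopic insemination. In each of 4 sows, 1 oviduct received Y-sorted and the other X-sorted spermatozoa from pooled ejaculates of several boars, and the uterine horns were stapled so that spermatozoa could not cross. Cells were scraped from the mucosa and 1 array was hybridised per oviduct, which gave 4 Y-spermatozoa arrays and 4 X-spermatozoa arrays. All 8 oviducts therefore carried sorted, stained spermatozoa and the surgery. No oviduct without spermatozoa was analysed here, so each value compares the 2 sperm types and not spermatozoa with none. Because the RNA came from scraped tissue, fewer cells of a type and less RNA per cell cannot be told apart.

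Chemokines are small secreted proteins that attract leukocytes through receptors of the CCR and CXCR families. Interleukins and TNF ligands signal between epithelial cells, stromal cells and leukocytes, and decoys such as IL18BP, which binds and blocks IL-18, limit them. In the oviduct they belong to the mucosal defence that meets microbes and also spermatozoa, which are foreign to the female.

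Signals were the deposited array intensities, scaled to the same trimmed mean on each array. An array's background was the 95th percentile of its 81 control probe sets without a pig target, and it lay between 8.5 and 10.7 on the Y-spermatozoa arrays and between 10.3 and 12.3 on the X-spermatozoa arrays. Of the 78 probe sets, 30 for 27 genes lay above background on all 8 arrays (38.5%, against 65.5% of all probe sets), 31 did so on some arrays and 17 on none (21.8%, against 15.3% of all). The labelled tissue was borne out by its markers. EPCAM, CDH1, KRT8, KRT18, KRT19 and OVGP1, the oviduct-specific glycoprotein, were above background on all 8 arrays. Their summed deposited signal ranged between 16385 and 17076 in Y-spermatozoa oviducts and between 13655 and 16238 in X-spermatozoa oviducts, without overlap. Deposited OVGP1 was 9315, 8576, 9035 and 7769 in Y-spermatozoa oviducts, against 6589, 8469, 7736 and 5841 in X-spermatozoa oviducts. After quantile normalization OVGP1, the brightest of them, had a log2 difference (Y-spermatozoa minus X-spermatozoa) of 0.02 ± 0.12 (SE). That normalization gives equal ranks equal values, so it leaves little room for a difference in so bright a probe set. The median over the 6 was 0.09, with 5 positive and 1 negative. PAX8 and FOXJ1 of the same list had no probe set with a single symbol. Of 6 spermatozoa markers 4 were found, with the sperm nuclear proteins PRM2 and TNP2 above background on 6 and 7 arrays and PRM1 and the tail protein ODF1 on none. PRM1 read 1.8, 1.5, 3 and 3.1 in Y-spermatozoa oviducts, against 1.2, 1.1, 1.1 and 0.8 in X-spermatozoa oviducts, without overlap and all below background (limma, unadjusted p = 0.000956, adjusted p = 0.883). Over all probe sets 3.56% had an unadjusted p under 0.05 and 2.07% held the groups without overlap. PRM2 and TNP2 had log2 differences of -0.45 ± 0.48 and -0.10 ± 0.46 (SE).

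Few of these genes separated the sperm types. By limma, 3 of the 78 probe sets had an unadjusted p under 0.05 (3.85%), against 855 of all 23999 (3.56%), so the share was close to the background. After Benjamini-Hochberg adjustment none of the 78 passed, and none of all probe sets did (0%). The 3 were CCL8 and 1 of the IL17B probe sets, which were higher in Y-spermatozoa oviducts (1.62% of all probe sets), and IL18R1, which was lower (1.94% of all). With the sow as a replicate block the count was 5, all higher in Y-spermatozoa oviducts, namely CCL8, CCL19, CCL27, CCL3L1 and the same IL17B probe set (5.09% of all probe sets passed in that fit). Of the probe sets that passed in either fit, CCL8 was the one above background on all 8 arrays.

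The median log2 difference, Y-spermatozoa minus X-spermatozoa, was 0.09 over the 78 probe sets and 0.0032 over all probe sets, and 47 of the 78 differences were positive and 31 negative. The median over the 78 was -0.04 in sow 1, 0.04 in sow 2, 0.21 in sow 3 and 0.22 in sow 4. The shift was thus carried by 2 of the 4 sows. A single probe set held all Y-spermatozoa values apart from all X-spermatozoa values (IL17B, described below), where 2.07% of all probe sets did. The sign was the same in 4 of 4 sows for 9 probe sets (11.5%, against 13.2% of all).

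**Figure D1:**
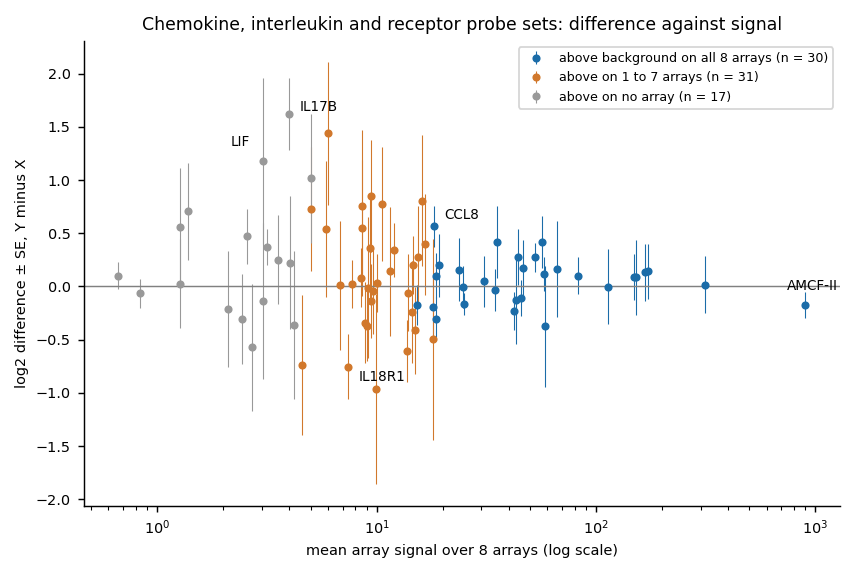
Log2 difference (Y-spermatozoa minus X-spermatozoa, with the standard error from limma) of each of the 78 probe sets against its mean array signal over 8 arrays on a log scale, coloured by the number of arrays above background. Differences above 1 or below -0.9 occur only among probe sets that are not above background on all 8 arrays, and CCL8, at 0.57, is the highest of the 30 that are.

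CCL8, also called MCP-2, attracts monocytes and other leukocytes, and it was one of the transcripts that the study measured again by PCR. Its probe set had signals of 22.1, 22.9, 23.1 and 17.1 in the Y-spermatozoa oviducts of sows 1 to 4, against 18.6, 10.9, 15.4 and 15.8 in their X-spermatozoa oviducts. The Y-spermatozoa value was the higher one in 4 of 4 sows, although the groups overlapped, because the Y-spermatozoa oviduct of sow 4 lay below the X-spermatozoa oviduct of sow 1. The means were 21.3 ± 2.83 in Y-spermatozoa oviducts and 15.2 ± 3.19 in X-spermatozoa oviducts (SD, n = 4 each), a log2 difference of 0.57 with a standard error of 0.19.

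By limma the unadjusted p of CCL8 was 0.0196 and the adjusted p was 1, and the exact two-sided permutation test over the 8 arrays gave p = 0.0571, where 0.0286 is the smallest it can give. The lowest signal, 10.9 in sow 2, stood next to that array's background of 10.3. Taken from the 64 reporter controls alone, that background was 11.15, and CCL8 was then below it on this array. The unadjusted p was 0.0504 without the Y-spermatozoa oviduct of sow 2, where the log2 difference was 0.52. With any other single array left out it lay between 0.00928 and 0.0472. With the sow as a block it was 0.0421 over 4 sows. Without sow 1 it was 0.0636 at a log2 difference of 0.66, without sow 2 0.0845 at 0.37, and without sow 3 0.121 at 0.54. Without sow 4 it was 0.0422 at 0.70.

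Values of leukocyte genes are given beside CCL8 because leukocytes are its targets, and their part in the result was not tested. Of 18 leukocyte markers 14 were found, 5 of them above background on all 8 arrays, and CD4 and S100A8 were below it on all 8. Of the 14 log2 differences 10 were positive and 4 negative. By limma 1 marker, PTPRC, had an unadjusted p under 0.05 (7.14%, against 3.56% of all probe sets). Their summed signal ranged between 193.9 and 276.5 in Y-spermatozoa oviducts and between 190.7 and 208.3 in X-spermatozoa oviducts. PTPRC, the leukocyte common antigen CD45, had 12.1, 15.7, 8.8 and 9.8 in Y-spermatozoa oviducts, against 9.2, 5, 6.8 and 7.6 in X-spermatozoa oviducts. It was above background on 2 arrays only (limma, unadjusted p = 0.0171, adjusted p = 1). Markers of 1 cell type went both ways. The T cell markers CD3E, CD2 and CD4 had log2 differences of -0.21 ± 0.29, -0.71 ± 0.83 and -0.02 ± 0.62 (SE). CD3D and CD8A, also of T cells, had 0.99 ± 0.83 and 0.23 ± 0.17 (SE). The neutrophil protein S100A12, above background on 1 array, had the lowest of the list at -1.69 ± 0.73 (SE, limma, unadjusted p = 0.0511). S100A8 and S100A9, also of neutrophils, had 0.16 ± 0.21 and 0.46 ± 0.32 (SE). The monocyte and macrophage markers CD14, CD163 and AIF1 had 0.36 ± 0.32, 0.06 ± 0.44 and 0.26 ± 0.19 (SE).

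Of 12 CC chemokine probe sets, 5 were higher in the Y-spermatozoa oviduct of all 4 sows and none was lower in all 4, against 6.44% of all probe sets that were higher in 4 of 4 sows. The 5 were CCL8, CCL14, CCL19, CCL27 and CCL3L1. Of these CCL8 alone passed in the limma fit without the block and was above background on all 8 arrays, and the other 4 were chosen for description after their values were seen. Whether the CC chemokines differed from the rest was not tested.

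CCL14, a monocyte attractant, had signals of 10.1, 35.7, 15.2 and 15.7 in Y-spermatozoa oviducts, against 8.6, 27.4, 11.3 and 4.2 in X-spermatozoa oviducts. It was above background in 4 of 4 Y-spermatozoa oviducts and in 1 of 4 X-spermatozoa oviducts, that of sow 2, where both sides were high (unadjusted p = 0.228, and 0.0668 with the sow as a block). That contrast depends in part on the level of each array. The 10.1 of the Y-spermatozoa oviduct of sow 1 passed a background of 9. The 11.3 of the X-spermatozoa oviduct of sow 3 was below a background of 12.3. CCL19, which guides lymphocytes and dendritic cells through CCR7, had 8.8, 13.2, 2.7 and 8.9 in Y-spermatozoa oviducts, against 8.2, 2.3, 1.4 and 2.7 in X-spermatozoa oviducts. It was above background on 1 array, that of the Y-spermatozoa oviduct of sow 2 (unadjusted p = 0.0660, and 0.0264 with the block).

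CCL27, a T cell attractant best known from skin, had 14.6, 12.1, 9 and 8.5 in Y-spermatozoa oviducts, against 13.2, 10.5, 4.7 and 2.5 in X-spermatozoa oviducts. Both oviducts of sows 1 and 2 were above background and those of sows 3 and 4 were not (unadjusted p = 0.145, and 0.0483 with the block). CCL3L1, a macrophage inflammatory protein, read 4, 3.2, 3.9 and 2.7 in Y-spermatozoa oviducts, against 3.4, 2.8, 2.9 and 2.5 in X-spermatozoa oviducts, below background on every array. In the pig assembly Sscrofa11.1 the genes CCL19, CCL27 and IL11RA lie close together, with CCL21 next to CCL19. IL11RA and CCL21 had log2 differences of 0.02 ± 0.27 and 0.01 ± 0.61 (SE), each higher in Y-spermatozoa oviducts in 2 of 4 sows.

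**Figure D2:**
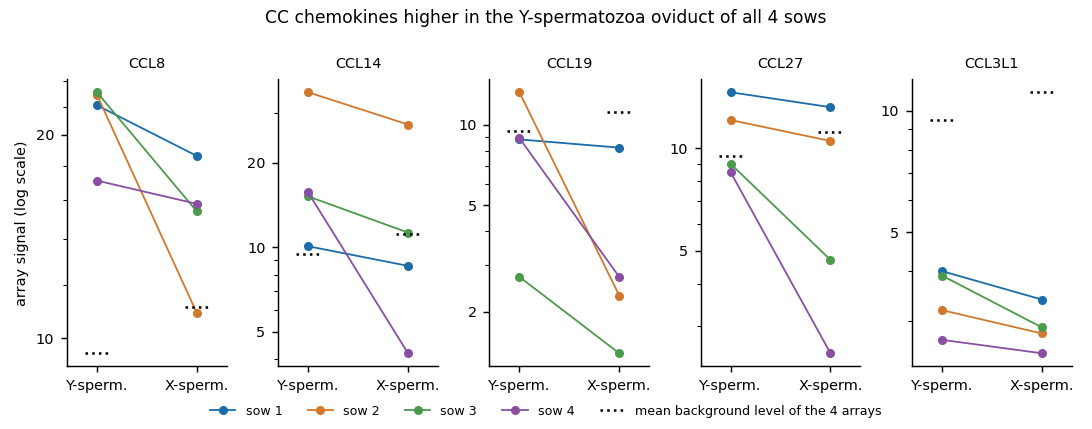
Array signals (log scale) of the 5 CC chemokines that were higher in the Y-spermatozoa oviduct of all 4 sows, with 1 line per sow from its Y-spermatozoa to its X-spermatozoa oviduct and dotted bars for the mean background of each group's 4 arrays. Every line falls to the right, and CCL8 is the one above its own array's background in all 8 oviducts, while CCL3L1 lies wholly below them.

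The remaining CC chemokines above background did not follow CCL8. CCL5, or RANTES, which attracts T cells, had signals of 38.3, 25.6, 44.5 and 27.7 in Y-spermatozoa oviducts, against 33, 30.5, 36.8 and 39.8 in X-spermatozoa oviducts, a log2 difference of -0.03 with a standard error of 0.19. CCL4, a macrophage inflammatory protein whose gene lies beside CCL3L1, had a log2 difference of 0.05 ± 0.24 (SE). Both were higher in 2 of 4 sows, and in both the groups overlapped. The eosinophil attractant CCL24 was above background on 5 arrays and the thymus and gut chemokine CCL25 on 3, with unadjusted p of 0.873 for CCL24 and 0.509 for CCL25.

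CCL28, a chemokine of mucosal epithelia that attracts antibody-secreting cells, stood high in both oviducts of 1 sow. Its signals were 88.1, 90.8, 87.8 and 181.8 in Y-spermatozoa oviducts, against 102.1, 91.8, 76 and 185.3 in X-spermatozoa oviducts. Both oviducts of sow 4 lay far above the other 6, and the groups overlapped fully, with a log2 difference of -0.0011 and a standard error of 0.35. The mean of the highest sow was 2.24 times that of the lowest (limma F test between sows, unadjusted p = 0.00363, adjusted p = 0.193).

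Between sows, 12 of the 78 probe sets had an unadjusted p under 0.05 (15.4%), against 14.2% of all probe sets, and none passed after adjustment, as for all probe sets (0%). Among the 30 above background on all 8 arrays the count was 6, namely CCL28, CXCL16, CXCL14, IL15, IL12RB2 and CCL4 (20%, against 13.8% of all probe sets above background on all 8 arrays). The sow cannot be told apart from anything that was done sow by sow. CXCL16, a membrane-bound ligand of CXCR6 on T cells, had 149.5, 231.8, 176.6 and 133.7 in Y-spermatozoa oviducts, against 125.6, 239.5, 152 and 124.2 in X-spermatozoa oviducts. Both oviducts of sow 2 were the highest (unadjusted p between sows = 0.0082), and the log2 difference between sperm types was 0.13 ± 0.26 (SE).

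IL12RB2, a chain of the interleukin-12 receptor, had signals of 13.8, 20.6, 28 and 17.9 in Y-spermatozoa oviducts, against 11.2, 18.7, 25.3 and 18.5 in X-spermatozoa oviducts. Both oviducts of sow 1 were the lowest and both of sow 3 the highest (unadjusted p between sows = 0.00615). IL15, which sustains natural killer cells and memory T cells, had 205.2, 145.3, 126 and 135.4 in Y-spermatozoa oviducts, against 178.8, 148.7, 106.4 and 144.7 in X-spermatozoa oviducts. It was highest in both oviducts of sow 1, with a log2 difference between sperm types of 0.09 ± 0.21 (SE).

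**Figure D3:**
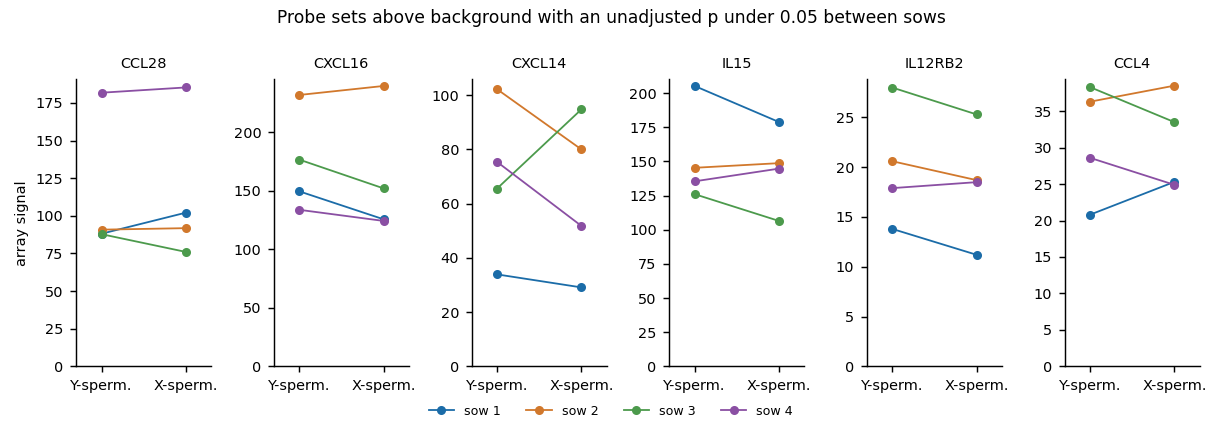
Array signals (linear scale from 0) of the 6 probe sets above background on all 8 arrays with an unadjusted p under 0.05 between sows, with 1 line per sow from its Y-spermatozoa to its X-spermatozoa oviduct. The lines run nearly level for CCL28, CXCL16 and IL12RB2, and sow 4 stands apart for CCL28 at 181.8 and 185.3.

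Among the CXC chemokines, none of 13 probe sets had an unadjusted p under 0.05 (3.56% of all probe sets did). None kept its sign in 4 of 4 sows (13.2% of all did). With 13 probe sets, counts of 0 are not far from these shares. AMCF-II, a porcine neutrophil attractant, had signals of 904.9, 842.3, 853.4 and 826.6 at the 1 of its 3 probe sets that was above background on all 8 arrays in Y-spermatozoa oviducts, against 1057.6, 831.2, 960 and 929.9 in X-spermatozoa oviducts. The log2 difference was -0.17 with a standard error of 0.12 (unadjusted p = 0.198), and the sign was negative in 3 of 4 sows and near 0 in sow 2. The other AMCF-II probe sets were below background on all 8 arrays or above it on 2. CXCL2, another neutrophil attractant, had 96.9, 189.2, 110.5 and 234.9 in Y-spermatozoa oviducts, against 131.1, 214.4, 101.3 and 134.7 in X-spermatozoa oviducts, with a log2 difference of 0.09 ± 0.35 (SE).

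CXCL12, a chemokine of stromal cells that acts through CXCR4, was singled out after its values were seen because the Y-spermatozoa oviducts split. At its second probe set the signals were 24.1, 83.9, 19.6 and 102.7 in Y-spermatozoa oviducts, against 47.8, 51.1, 74.7 and 66.2 in X-spermatozoa oviducts. At the first they were 18.7, 58.1, 28 and 69.3 in Y-spermatozoa oviducts, against 37.2, 40.2, 53 and 41.5 in X-spermatozoa oviducts. In both, the Y-spermatozoa oviducts of sows 2 and 4 lay above all X-spermatozoa oviducts and those of sows 1 and 3 below all of them. The difference between sperm types was within that spread, with log2 differences of -0.37 ± 0.57 and -0.13 ± 0.41 (SE).

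CCL2, a monocyte attractant, and the neutrophil attractant CXCL8, chosen in the same way, were high in the same Y-spermatozoa oviducts. CCL2 had 8.1, 31.5, 1.7 and 33.9 in Y-spermatozoa oviducts, against 10, 26.9, 16.8 and 15.9 in X-spermatozoa oviducts. CXCL8 had 4.1, 15.1, 2.6 and 26.1 in Y-spermatozoa oviducts, against 5.1, 7.1, 4.2 and 4.6 in X-spermatozoa oviducts, and it was above background only in the Y-spermatozoa oviducts of sows 2 and 4. Neither had an unadjusted p under 0.05 (0.612 for CCL2 and 0.323 for CXCL8).

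Signals of stroma, muscle and endothelium markers are given beside these values, and their part in them was not tested. Of 7 stroma and muscle markers 5 were found, 4 of them above background on all 8 arrays, and none of the 5 was at 0. Their summed signal was 2954, 6588, 3290 and 6524 in Y-spermatozoa oviducts, against 4318, 7070, 5603 and 4427 in X-spermatozoa oviducts. The summed signal of the 4 endothelium markers was 182, 382, 251 and 299 in Y-spermatozoa oviducts, against 211, 320, 226 and 210 in X-spermatozoa oviducts. In both sums the Y-spermatozoa oviducts of sows 2 and 4 exceeded those of sows 1 and 3, whereas among the X-spermatozoa oviducts the sums were highest in sow 2 and CXCL12 in sow 3. Most of the stroma and muscle sum came from VIM and ACTA2 (3680 and 2562 in the Y-spermatozoa oviduct of sow 2). The collagen gene COL1A2 did not show the split, with 81.3, 82.9, 73.7 and 79.5 in Y-spermatozoa oviducts, against 67.9, 98, 99.5 and 79.2 in X-spermatozoa oviducts. Of the endothelium markers PECAM1 and VWF showed it and CDH5 and KDR did not. CDH5 had 55.4, 165.8, 121.4 and 101.7 and KDR 7.9, 9.7, 20.2 and 5.7 in Y-spermatozoa oviducts.

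**Figure D4:**
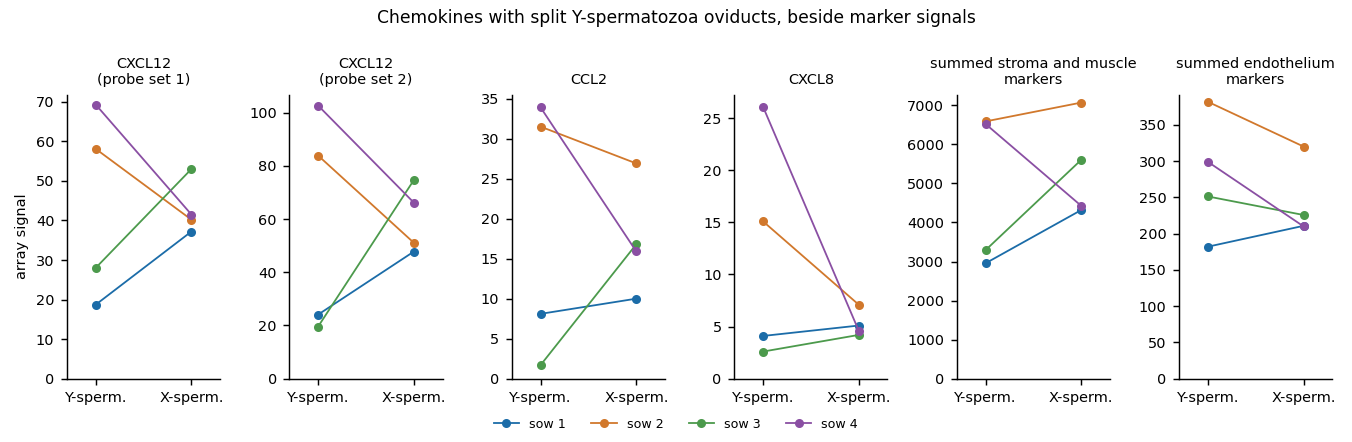
Array signals (linear scale from 0) of the CXCL12 probe sets, CCL2 and CXCL8, beside the summed signals of the stroma and muscle markers and of the endothelium markers, with 1 line per sow from its Y-spermatozoa to its X-spermatozoa oviduct. In the chemokine panels and in the stroma and muscle panel, among the Y-spermatozoa oviducts, those of sows 2 and 4 sit together above those of sows 1 and 3.

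CXCL14, an epithelial chemokine, had signals of 33.9, 102.2, 65.5 and 75.4 at its second probe set in Y-spermatozoa oviducts, against 29.1, 80, 94.7 and 51.8 in X-spermatozoa oviducts. Its first probe set gave the same sign in each sow, higher in Y-spermatozoa oviducts in sows 1, 2 and 4 and lower in sow 3. The log2 differences of 0.16 ± 0.45 and 0.16 ± 0.30 (SE) were within the spread between sows.

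Chemokine receptors were largely near background, and none of 7 had an unadjusted p under 0.05 (3.56% of all probe sets did). CXCR4, the CXCL12 receptor on leukocytes and other cells, had 25.4, 50.8, 35.7 and 48 in Y-spermatozoa oviducts, against 38.1, 42, 26.3 and 18.1 in X-spermatozoa oviducts. It was higher in the Y-spermatozoa oviduct of sows 2, 3 and 4 and lower in sow 1, and the groups overlapped (log2 difference 0.42 ± 0.34 SE, unadjusted p = 0.252). CCR9, the CCL25 receptor, had a log2 difference of -0.18 ± 0.19 (SE). The CXCL16 receptor CXCR6 was above background on 7 arrays, the CC chemokine receptors CCR1 and CCR2 on 4 and 3, the CCL19 and CCL21 receptor CCR7 on 1 and the eosinophil receptor CCR3 on none.

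In the interleukin-1 family, IL1B, a proinflammatory cytokine, was lower in the Y-spermatozoa oviduct of all 4 sows. The probe set above background had signals of 35.6, 31.5, 47 and 39.8 in Y-spermatozoa oviducts, against 49.3, 35, 56.5 and 44.3 in X-spermatozoa oviducts. The groups overlapped, the log2 difference was -0.23 with a standard error of 0.18, and the unadjusted p was 0.239 (0.085 with the sow as a block). The other IL1B probe set was below background on all 8 arrays. IL1R1, the signalling receptor of IL-1, had a log2 difference of 0.17 ± 0.26 (SE), positive in 3 of 4 sows.

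IL18R1, the ligand-binding chain of the interleukin-18 receptor, read 5.6, 3.4, 8.6 and 4.2 in Y-spermatozoa oviducts, against 8.9, 12.8, 7.2 and 8.6 in X-spermatozoa oviducts. Only the X-spermatozoa oviduct of sow 2 was above background, so no fold is given. Its unadjusted p was 0.0389 (adjusted p = 1) and 0.104 with the sow as a block, and it was above 0.05 with 6 of the 8 arrays left out in turn. IL18 itself had 43.3, 51, 32.4 and 65.5 in Y-spermatozoa oviducts, against 54.5, 38.3, 35.8 and 31.9 in X-spermatozoa oviducts, higher in sows 2 and 4 and lower in sows 1 and 3.

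The IL-18 inhibitor IL18BP had 253.2, 108.2, 169.4 and 204.8 in Y-spermatozoa oviducts, against 131.9, 167, 170.4 and 169.7 in X-spermatozoa oviducts. The Y-spermatozoa oviducts held both the highest and the lowest value. The log2 differences were 0.28 ± 0.26 for IL18 and 0.15 ± 0.26 for IL18BP (SE).

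IL17B, a member of the IL-17 family, was covered by 3 probe sets that disagreed. One of these read 6.6, 6.5, 5.4 and 4.7 in Y-spermatozoa oviducts, against 2.9, 1, 3 and 1.8 in X-spermatozoa oviducts, without overlap, and had the lowest p of the 78 (unadjusted p = 0.00162, adjusted p = 1, exact permutation p = 0.0286). All 8 of these values were below background, so no fold is given. Another, above background on all 8 arrays, had 41.9, 53.4, 40.1 and 37.9 in Y-spermatozoa oviducts, against 37.7, 54, 54.3 and 45 in X-spermatozoa oviducts, a log2 difference of -0.11 ± 0.17 (SE). The third, also above background on all 8 arrays, had a log2 difference of 0.10 ± 0.21 (SE).

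In the IL-10 and IL-12 families, IL10RB, a receptor chain shared by several cytokines, had a log2 difference of 0.10 ± 0.17 and IL12RB2 of 0.20 ± 0.29 (SE). IL12A, IL12B and IL17A were below background on all 8 arrays, and IL10 was above it on 1. Among the common gamma-chain cytokines and their receptors, with which IL-13 and its receptor chain IL13RA1 were listed, IL15, IL4R and IL13RA1 were above background on all 8 arrays. IL4R, the receptor chain for IL-4 and IL-13, had a log2 difference of 0.12 ± 0.16 and IL13RA1 of -0.0052 ± 0.20 (SE). The T cell cytokines IL4, IL13 and IL21 and the receptor chain IL2RA were below background on every array.

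In the IL-6 family, the receptor chain IL27RA had signals of 50.8, 62.8, 51.1 and 65.6 in Y-spermatozoa oviducts, against 44.5, 43.9, 55.9 and 49 in X-spermatozoa oviducts. It was higher in the Y-spermatozoa oviduct of sows 1, 2 and 4 and lower in sow 3, with overlap (log2 difference 0.27 ± 0.14 SE, unadjusted p = 0.0880). IL11RA, the interleukin-11 receptor, had 374.6, 358.2, 191.2 and 349.5 in Y-spermatozoa oviducts, against 261.2, 347.2, 234.9 and 396.1 in X-spermatozoa oviducts. Both oviducts of sow 3 were the lowest of their group.

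LIF, a gp130 cytokine known for its part in implantation, read 8.4, 0.9, 5 and 2.8 in Y-spermatozoa oviducts, against 0.6, 5.2, 0.9 and 0.6 in X-spermatozoa oviducts. All 8 values were below background (unadjusted p = 0.170, and 0.289 with the sow as a block). It was 0.0396 without the X-spermatozoa and 0.0406 without the Y-spermatozoa oviduct of sow 2, the only sow in which LIF was lower in the Y-spermatozoa oviduct. The receptor IL6R and the granulocyte-macrophage factor CSF2 were also below background on every array. IL6 was above it on 3 arrays, with a log2 difference of 0.04, and the granulocyte factor CSF3 on 5, with signals of 11.2, 13.3, 8.1 and 8.9 in Y-spermatozoa oviducts, against 9.8, 18.2, 22.7 and 17.8 in X-spermatozoa oviducts (unadjusted p = 0.0723). CSF3 was also chosen after its values were seen. Its unadjusted p by limma was 0.0436 on the deposited scaling and 0.00626 without the X-spermatozoa oviduct of sow 1, at log2 differences of -0.69 and -0.86. The signal of that oviduct, 9.8, was the sole X-spermatozoa value within the Y-spermatozoa range. With the sow as a block the unadjusted p of CSF3 was 0.116, and the exact permutation test gave p = 0.0857.

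Among the TNF ligands, TNFSF10, or TRAIL, which can trigger cell death, had 21.9, 24.2, 22.6 and 23.7 in Y-spermatozoa oviducts, against 28.8, 26, 28 and 24.7 in X-spermatozoa oviducts. Every deposited Y-spermatozoa signal lay below every X-spermatozoa signal, but after quantile normalization the groups overlapped, and the log2 difference was -0.17 ± 0.10 (SE, unadjusted p = 0.144, exact permutation p = 0.0571). TNFSF13, or APRIL, a survival factor of antibody-secreting cells, had 50.2, 68.6, 48.3 and 94 in Y-spermatozoa oviducts, against 52.7, 56.4, 42.2 and 42.4 in X-spermatozoa oviducts (log2 difference 0.42 ± 0.24 SE, unadjusted p = 0.124). TNFSF4, the OX40 ligand, had a log2 difference of -0.19 ± 0.29 (SE). TNF was above background on 3 arrays and IFNG on 1.

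Outside these families, IL34, a ligand of the macrophage receptor CSF1R, had a log2 difference of -0.30 ± 0.20 (SE, unadjusted p = 0.175). Of 67 other genes of the same pathways (JAK kinases, STAT factors, SOCS inhibitors, MYD88 and NF-kB components, further receptors), 34 had a probe set with a single symbol and 24 were above background on all 8 arrays. None had an unadjusted p under 0.05 (3.56% of all probe sets did), and their median log2 difference was 0.0045, against 0.0032 over all probe sets. In the limma fit with the sow as a block 1 of the 34 passed (5.09% of all probe sets did), CD27, a TNF receptor family member of T cells (unadjusted p = 0.00198, adjusted p = 0.895), with signals of 13.6, 1.8, 6.1 and 14.9 in Y-spermatozoa oviducts, against 4.4, 0.9, 1.1 and 4.2 in X-spermatozoa oviducts. CD27 was above background in 2 Y-spermatozoa oviducts and in no X-spermatozoa oviduct. TRAF3IP2, the adaptor of the IL-17 receptor, had a log2 difference of 0.16 ± 0.17 and the kinase JAK2 of -0.19 ± 0.14 (SE).

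**Figure D5:**
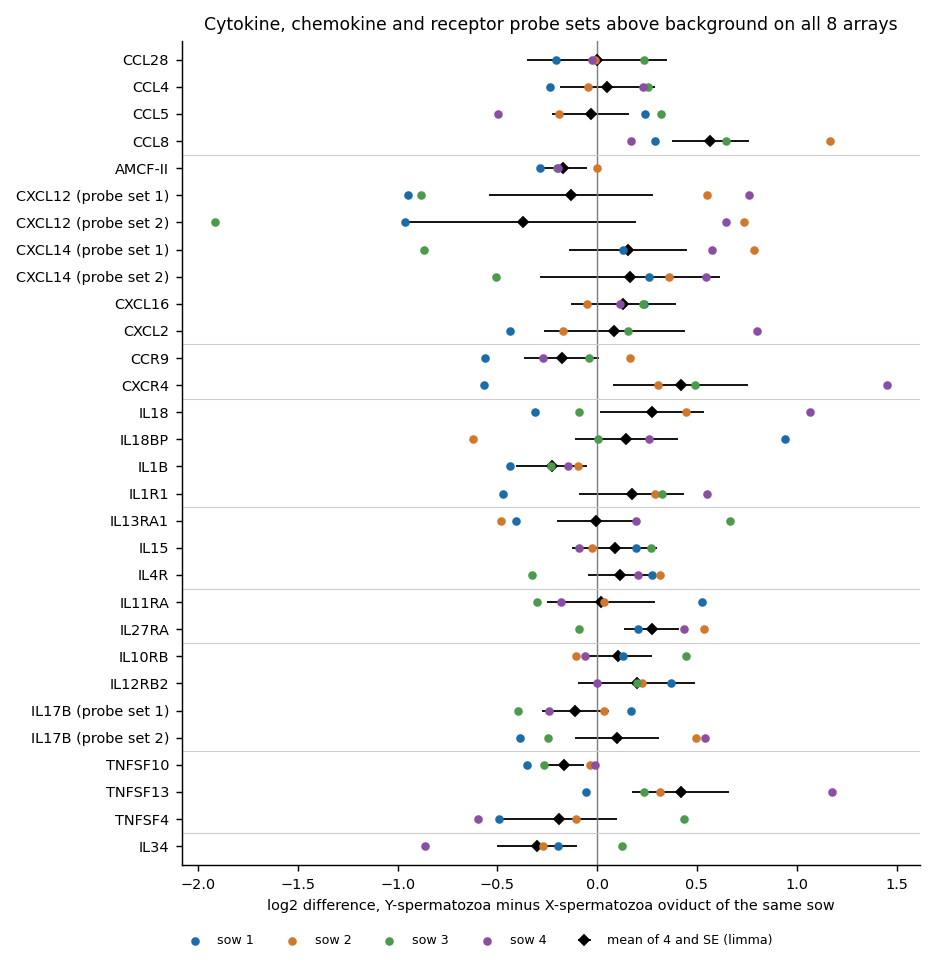
Log2 difference between the Y-spermatozoa and the X-spermatozoa oviduct of each sow (coloured points) for the 30 probe sets above background on all 8 arrays, with the mean and its standard error from limma as a black diamond and bar. CCL8 is the sole row with all 4 points right of 0, IL1B and TNFSF10 have all 4 left of it, and CXCL12 has the widest spread between sows.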

How the data were processed

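The authors deposited array intensity values from MAS5 5.1, per the labels' processing notes, scaled to a common trimmed mean, for 24123 probe sets. The study's own comparison used RMA values and limma tests. Here signals were quantile-normalized over all probe sets, floored at 1 and log2-transformed, 124 AFFX controls were dropped, and Y-spermatozoa was compared with X-spermatozoa by limma 3.58.1 (R 4.3.3) on 8 arrays, with Benjamini-Hochberg adjustment over 23999 probe sets. The test was tested on simulated data. Depth does not apply to arrays, and their number limits the precision. The members and lists were chosen with earlier results of these data known.

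Replicate numbers in the labels were read as sows, since both oviducts of each sow were used. Deviations of same-numbered arrays from their group means correlated at 0.187, 0.177, 0.144 and 0.132. All 78 probe sets matched the Sscrofa11.1 gene table, used for names and neighbours alone. Of all probe sets, 10069 had 1 symbol, 198 several and 13732 none.

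The background was first worded to include poly-A spike controls, and these were left out after their signal was seen (64 reporters and 17 tag controls remained). Named genes were those with an unadjusted p under 0.05, up to 4 of the highest mean signal above background per list, CCL8 and LIF, which the study named, and genes below background without a fold. Other genes described by their values, among them CCL14, CCL19, CCL27, CCL3L1, CXCL12, CCL2, CXCL8 and CSF3, were chosen after these were seen. Alternatives were median centring, the deposited scaling, a pseudocount of 16, a filter on low signals, fixed and random sow blocks, a hybridisation covariate, trend and robust eBayes, and leaving out each array or sow. The test between sows was chosen after seeing the data.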

Additional observations from a re-analysis of the deposited data

Results flagged for a closer look

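A set of 5 results among the 30 probe sets above background on all 8 arrays were picked out because 1 oviduct lay far from the other 3 of its group by Dixon's criterion. Of 60 groups tested 5 were so picked, and chance picks about 1 in 20. CCL28 was 181.8 in the Y-spermatozoa oviduct of sow 4, where the other 3 ranged between 87.8 and 90.8, and the X-spermatozoa oviduct of that sow was likewise high at 185.3. CCL8 was 17.1 in the Y-spermatozoa oviduct of sow 4, where the other 3 ranged between 22.1 and 23.1. IL11RA was 191.2 in the Y-spermatozoa oviduct of sow 3, where the other 3 ranged between 349.5 and 374.6. CCR9 was 12 in the X-spermatozoa oviduct of sow 2, where the other 3 ranged between 17.8 and 18.7. IL18BP was 131.9 in the X-spermatozoa oviduct of sow 1, where the other 3 ranged between 167 and 170.4.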

How the results depend on the processing

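With the sow as a replicate block, the count of calls at the unadjusted threshold was 5 of 78 in place of 3, and with a random block also 5, while over all probe sets the random block passed 1459 in place of 855. After a filter on low signals 557 of 18024 probe sets passed and 1 of 42 chemokine and interleukin probe sets, CCL8. With the hybridisation covariate 8 of the 78 passed, 3 higher and 5 lower in Y-spermatozoa oviducts, and 809 of all 23999, 430 higher and 379 lower. Leaving out 1 array or sow gave 2 to 6, the highest without the X-spermatozoa oviduct of sow 1 and, with the block, without sow 2. Of the other pathway genes 1 passed under the pseudocount, either block, trend and robust eBayes or the covariate, in place of 0, and 0 to 3 with an array or sow left out. Probe sets above background on all 8 arrays numbered 2 in place of 30 with the poly-A controls in the background, 28 with reporters alone and 41 by the median signal. CCL8 was not among the 2 or the 28. The median log2 difference of the 78 ran between 0.04 and 0.14 over all alternatives.

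Of 624 repeats for the 30 probe sets named by the rule, 543 kept sign and side of the threshold, 16 lost an unadjusted p under 0.05, 6 gained it and 59 turned the sign, 58 of them between values that never passed. The cause was not tested. With the hybridisation covariate the log2 differences were -2.32 for LIF (below background), 0.041 for AMCF-II, -0.12 for CXCL16, -0.013 for IL10RB, -0.37 for IL11RA, 0.028 for TNFSF10, 0.33 for CCR9, -0.14 for IL15, -0.77 for IL18BP and 0.077 for IL1B. These controls were brighter on the Y-spermatozoa arrays (9.87 to 10.09 on the log2 scale) than on the X-spermatozoa arrays (9.59 to 9.83), so the covariate separated the groups completely and cannot be told apart from sperm type. Median centring gave 0.022 for CCL28. With 1 array or sow left out, the log2 difference ran between -0.26 and 0.27 for CCL28, -0.057 and 0.23 for CCL4, -0.16 and 0.12 for CCL5, -0.17 and 0.47 for CXCL14, -0.021 and 0.35 for CXCL16, -0.15 and 0.29 for CXCL2, -0.012 and 0.23 for IL10RB, -0.021 and 0.36 for IL12RB2, -0.0498 and 0.26 for the third IL17B probe set, -0.15 and 0.25 for IL11RA, -0.40 and 0.00999 for TNFSF4, -0.23 and 0.15 for IL13RA1, -0.0596 and 0.20 for IL15, and -0.12 and 0.40 for IL18BP. The log2 difference of CCL8 ran between 0.29 (pseudocount) and 1.16 (hybridisation covariate) over all alternatives. With no array or sow left out its unadjusted p by limma ran between 0.0117 (hybridisation covariate) and 0.0421 (fixed sow block).

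The same settings were repeated for 9 probe sets of CCL14, CCL19, CCL27, CCL3L1, CXCL12, CCL2, CXCL8 and CSF3, chosen after seeing the data. Of 181 repeats 151 kept sign and side of the threshold, 20 gained an unadjusted p under 0.05 and 10 turned the sign. CXCL12 was at 0.79 and 0.68 with the covariate. With 1 array or sow left out it ran between -0.43 and 0.20 at the first probe set and between -0.77 and 0.14 at the second, and CCL2 between -1.04 and 0.41. The p fell under 0.05 without the X-spermatozoa oviduct of sow 2 for CCL14 (0.0411), without that of sow 1 for CCL19 (0.0128), CCL27 (0.0441), CCL3L1 (0.0312) and CSF3, and without the Y-spermatozoa oviduct of sow 3 for CCL19 (0.0165), of sow 4 for CCL3L1 (0.0135) and of sow 2 for CSF3 (0.0451). CCL14 also passed with the sow block and the filter together (0.0400) and with the block without sow 4 (0.0285).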
